A study of Mus musculus with 6 samples.

Results

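The genes described here are 41 mouse genes of glycolysis and of the transcriptional response to low oxygen. They were chosen by symbol, with earlier results of these data known. Of the 41 symbols, 38 had at least 1 probe, out of 19057 genes with an annotated probe, and 30 of the 38 were detected on at least 1 array. Hk2, Gpi1 and Eno1 had no probe annotated to them alone and were not analysed here. The probes of Pfkfb3, Slc16a1, Pdk2, Bnip3, Egln1, Ero1l (now Ero1a), Higd1a and Adm were not detected on any array. Detection means a signal at least as high as the dimmest probe that passed a detection p-value of 0.01 on that array.

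The samples came from the established mouse embryonic stem cell line E14, carrying Snail-ER, in which the transcriptional repressor Snail is joined to an estrogen receptor domain. The cells were grown in serum with LIF, which keeps stem cells undifferentiated, and 4-hydroxytamoxifen (4-OHT) was added to bring the fusion into the nucleus. RNA was taken at 0, 2, 4, 8, 12 and 24 h of 4-OHT and hybridised to Illumina bead arrays, with 1 array per time and so no replicates. All 6 groups carried the fusion, and no group without it or kept for the same hours without 4-OHT was analysed here, so 4-OHT, the fusion and time in culture cannot be told apart. The labels do not say whether the line was a single clone or whether the times came from separate cultures.

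Glycolysis splits glucose into pyruvate through a chain of cytosolic enzymes, and mouse embryonic stem cells rely on it strongly. Pyruvate is then either reduced to lactate or oxidised in mitochondria by the pyruvate dehydrogenase complex, which kinases of the PDK family switch off. HIF transcription factors, whose alpha subunits are destroyed when oxygen is plentiful, bind a short DNA element with the core ACGTG or GCGTG and raise the transcription of many of these genes. The same factors also control genes outside glycolysis, for oxygen sensing, blood vessel growth, mitophagy and collagen processing.

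The cell identity labels were examined with marker genes. All 12 markers of undifferentiated stem cells were detected on all 6 arrays, with a summed normalized intensity between 37348 and 51647 in arbitrary units. Of these markers Nanog, Zfp42 and Esrrb fell over the series and Utf1 rose, while Pou5f1 did not pass (limma adjusted p = 0.10). The decreases of Nanog, Zfp42 and Esrrb, like those of the members below, were largest between 4 and 8 h, and their part in the members' changes was not tested. Among markers of fibroblast feeder cells, 4 of 12 were detected, with a summed intensity between 182 and 284, and the collagen genes Col1a1, Col1a2 and Col3a1 were not detected on any array. Primitive endoderm markers were detected for 4 of 10 genes (summed intensity 626 to 945, without Gata4, Gata6 or Sox17), and trophectoderm markers for 5 of 8 (421 to 638, without Cdx2). Of the detected markers the feeder gene Twist1 rose, the endoderm gene Lama1 fell, and the trophectoderm genes Eomes, Krt8 and Krt18 rose and Tfap2c fell. Twist1, Eomes and Krt18 were detected at 12 and 24 h only, with 8.1, 18.0 and 16.8 at 0 h. The size of their rises therefore rests on signals below detection. The arrays differed in sensitivity. The lowest detected signal was 60.6, 71.1 and 62.0 at 0, 2 and 8 h and 31.4, 18.5 and 18.9 at 4, 12 and 24 h, so dim members could be detected at some times and not at others.

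Stretches of promoter are shown for 5 members whose signal was at least 2-fold lower at 24 h (Pdk1, Pfkp, Aldoc, Ankrd37 and Ddit4) and for Ldha, whose signal stayed level, because the members are grouped by their known control through HIF. Each is the 250 bases before the start given by RefSeq, build GRCm38.p6, written 5′ to 3′ on the strand of the gene, and capitals mark the HIF core on either strand. They lie at chr2:71872974-71873223 (Pdk1, plus strand), chr13:6648772-6649021 (Pfkp, minus), chr11:78322823-78323072 (Aldoc, plus), chr8:45999851-46000100 (Ankrd37, minus), chr10:59951771-59952020 (Ddit4, minus) and chr7:46845554-46845803 (Ldha, plus). Where a gene had several starts, the promoter with the most matches, then the most upstream one, was taken.
Pdk1: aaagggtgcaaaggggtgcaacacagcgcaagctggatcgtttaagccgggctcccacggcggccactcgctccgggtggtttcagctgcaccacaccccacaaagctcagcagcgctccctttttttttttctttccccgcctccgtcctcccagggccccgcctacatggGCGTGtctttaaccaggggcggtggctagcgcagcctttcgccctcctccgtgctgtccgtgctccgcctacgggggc
Pfkp: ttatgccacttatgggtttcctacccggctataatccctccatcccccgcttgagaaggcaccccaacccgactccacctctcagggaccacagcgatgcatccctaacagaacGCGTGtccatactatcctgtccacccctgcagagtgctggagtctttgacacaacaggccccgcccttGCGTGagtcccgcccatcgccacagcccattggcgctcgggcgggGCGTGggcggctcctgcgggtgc
Aldoc: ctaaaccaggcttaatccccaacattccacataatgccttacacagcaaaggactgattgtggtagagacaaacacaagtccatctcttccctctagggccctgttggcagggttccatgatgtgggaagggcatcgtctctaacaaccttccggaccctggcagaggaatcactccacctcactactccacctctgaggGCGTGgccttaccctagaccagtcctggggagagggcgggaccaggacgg
Ankrd37: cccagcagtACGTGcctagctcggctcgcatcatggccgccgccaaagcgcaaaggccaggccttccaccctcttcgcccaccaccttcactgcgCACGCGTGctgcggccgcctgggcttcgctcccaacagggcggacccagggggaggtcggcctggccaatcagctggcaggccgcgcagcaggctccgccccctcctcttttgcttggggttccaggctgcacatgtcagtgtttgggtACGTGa
Ddit4: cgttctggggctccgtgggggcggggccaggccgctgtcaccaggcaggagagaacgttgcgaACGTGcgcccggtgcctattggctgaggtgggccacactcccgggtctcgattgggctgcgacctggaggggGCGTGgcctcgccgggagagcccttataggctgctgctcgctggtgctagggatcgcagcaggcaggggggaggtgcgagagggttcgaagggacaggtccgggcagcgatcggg
Ldha: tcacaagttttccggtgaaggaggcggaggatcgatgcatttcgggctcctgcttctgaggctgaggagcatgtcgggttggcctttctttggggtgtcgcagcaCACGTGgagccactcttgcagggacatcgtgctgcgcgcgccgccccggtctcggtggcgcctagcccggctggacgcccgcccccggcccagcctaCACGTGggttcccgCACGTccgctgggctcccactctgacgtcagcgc
Of the 41 members, 37 matched the RefSeq promoter table. The HIF core (ACGTG or GCGTG, both strands) stood in at least 1 promoter of 33 of these 37, or 89.2%, against 62.5% of the 7701 genes with a promoter that were detected on the arrays and 41.5% of all 27025 genes in the table. It stood in all 11 members with a promoter that fell over the series, and in 12 of 15 detected members with a promoter that did not pass. Many members were listed as HIF targets, so their share may come from how they were chosen, which was not tested. A gene with several starts counted if any of its promoters matched. The 37 members had 52 promoters, and the 27025 genes had 32851. Matches were counted per strand, so each of the 2 palindromic CACGTG stretches in the Ldha promoter counts as 2 of its 5 matches and the sequence shows 3 marked stretches. Pdk1, Egln3, Aldoa, Aldoc and Ldhb, which fell, had 1 match each in the promoter with the most. The E-box CACGTG, which contains the HIF core ACGTG, stood in promoters of 6 of the 37 members, or 16.2%, against 10.3% of the genes detected. The E-box CAGGTG, which Snail binds, stood in promoters of 6 of the 37, or 16.2%, against 18.2%. A match is a string of letters and does not show that a factor bound there.

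Over the 24 h, 14 of the 30 detected members fell and none rose, against 6.19% of all 9432 genes tested that fell and 6.24% that rose (limma, slope of log2 intensity against log2(hours + 1), Benjamini-Hochberg adjusted p of 0.05 over all genes). The median fitted change of the 30 was -0.70 on the log2 scale, beside 0.06 for all genes. Among the 21 members detected on all 6 arrays, 10 fell, against 6.76% of the genes so detected. Of the other 9, 4 fell (Ldhb, Ndrg1, Ankrd37 and Bhlhe40). The test rests on the scatter of single arrays about a line, with 4 residual degrees of freedom, and it called no member when hours were not log-transformed, although 15 members had a negative slope there at an unadjusted p under 0.05. Nor did it call any when probes not detected on any array were kept (0 of 38 members and 0 of 19057 genes, smallest adjusted p = 0.13; 17 members with a negative slope at an unadjusted p under 0.05). Moderation without an intensity trend left 7 calls: Slc2a3, Pfkp, Aldoc, Ldhb, Pdk1, Ankrd37 and Ddit4. Robust moderation ended those of Pfkp (adjusted p = 0.051), Aldoa and Bhlhe40. In bulk samples, fewer cells of a type and less RNA per cell cannot be told apart. Without the 0 h array or without the 12 h array, 7 members fell, where 2.42% and 2.54% of all genes fell. Without the 24 h array 8 members fell (3.69% of all genes), and without the 2 h array 9 (3.34%).

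**Figure D1:**
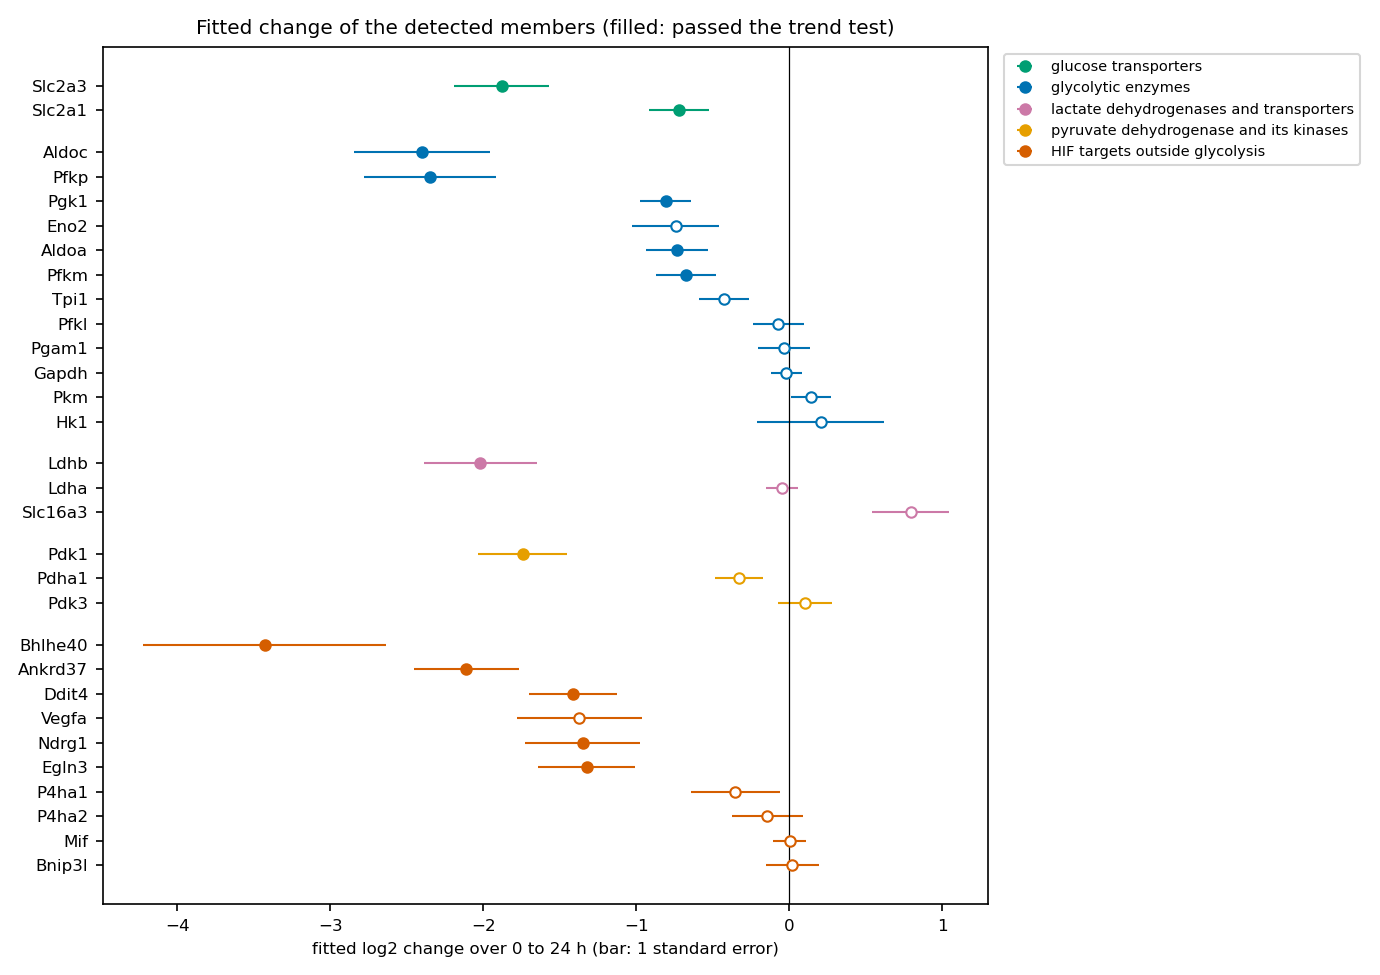
Fitted log2 change over 0 to 24 h for the 30 detected members, grouped by role, with bars of 1 standard error from the limma fit over 6 arrays. Filled points passed the trend test and open points did not. The filled points run from -3.43 for Bhlhe40 to -0.67 for Pfkm, and Gapdh, Ldha and Mif lie within 1 standard error of 0.

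The drop came mainly between 4 and 8 h. For 21 of the 30 members the largest decrease between neighbouring times was the one from 4 to 8 h, as it was for 28% of all genes. The members' median difference from 0 h on the log2 scale was -0.02 both at 2 h and at 4 h. It then was -0.46 (8 h), -0.43 (12 h) and -0.50 (24 h), while the median of all genes stayed between 0.01 and 0.08. At 2 and 4 h no member was 2-fold from 0 h in either direction, where 0.15% and 0.856% of the genes comparable at those times were at least 2-fold lower. At 8 h, 8 of 26 comparable members were at least 2-fold lower than at 0 h (2.94% of genes), at 12 h 8 of 30 (4.25%) and at 24 h 9 of 29 (4.18%), and none was 2-fold higher at any time, while 0.015% (2 h), 1.15% (8 h), 1.25% (12 h) and 1.28% (24 h) of genes were. Between the 4 and 8 h arrays alone, 7 of 30 members were at least 2-fold lower, against 1.45% of genes. In 19 of the 30 members all of the 8, 12 and 24 h signals lay below all of the 0, 2 and 4 h signals, against 17.1% of all genes. That boundary between times was set after the values were seen. Differences from 0 h carry no error, since each time had 1 array.

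**Figure D2:**
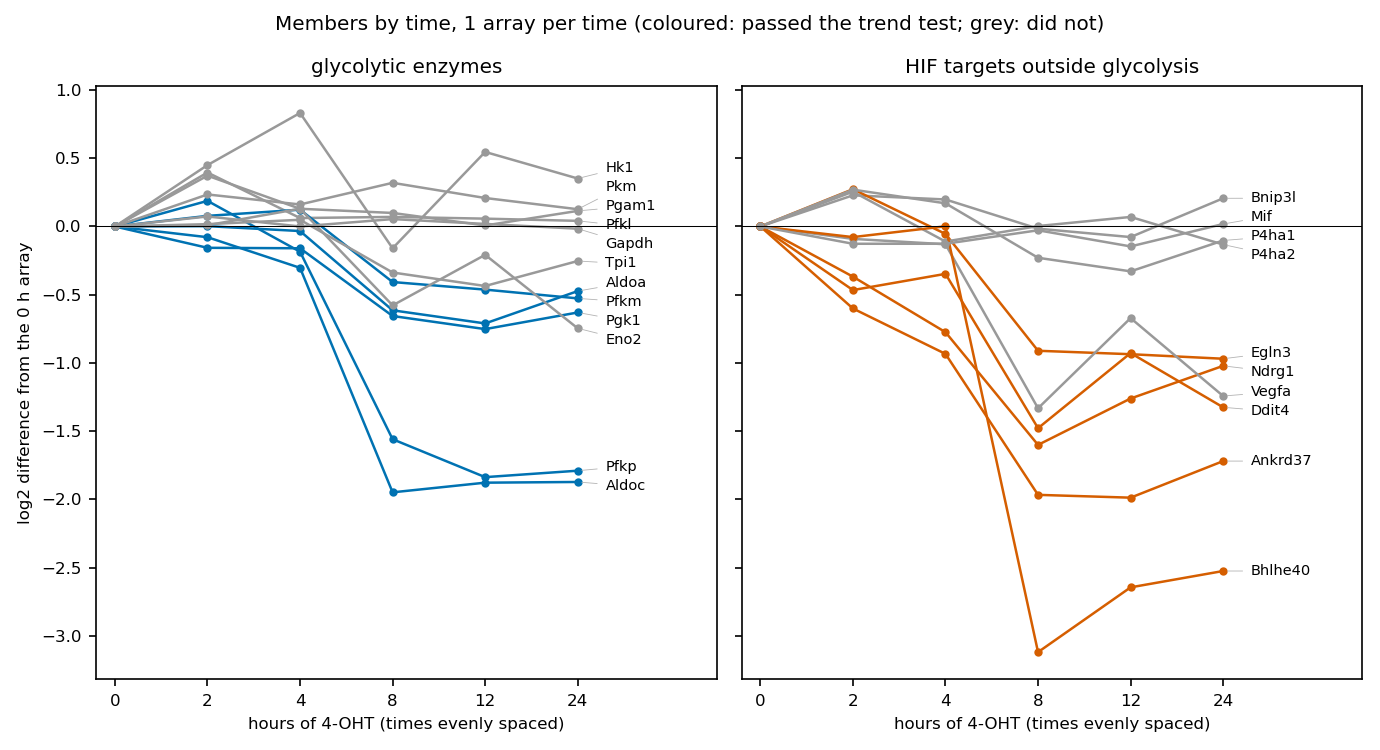
Log2 difference from the 0 h array, on the scale of log2(normalized intensity + 16), for the detected glycolytic enzymes (left) and HIF targets outside glycolysis (right) at each time, 1 array per time. Coloured lines passed the trend test and grey lines did not. The lines of Pfkp, Aldoc and Bhlhe40 step down between 4 and 8 h and stay low, while Gapdh and Mif run level.

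Glucose enters these cells through the transporters GLUT1 and GLUT3, and the genes for both fell. Slc2a3, which encodes the high-affinity transporter GLUT3, had normalized intensities of 6023, 5772.5, 5001, 2167, 2273 and 2086 in order of time. Its signal at 8 h was 2.77-fold lower than at 0 h and at 24 h 2.87-fold lower (fitted change -1.88 ± 0.31, SE; limma adjusted p = 0.0063). Slc2a1, which encodes GLUT1, had intensities of 3630.4, 4019, 3779, 2551.5, 2695 and 2456. Both genes were high on the arrays of the first 4 h and low from 8 h on, with no overlap, and the decrease of Slc2a1 was 1.48-fold at 24 h (-0.72 ± 0.20; limma adjusted p = 0.036). The call for Slc2a1 was lost when the 2, 12 or 24 h array was left out, with adjusted p-values up to 0.13.

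Of the 15 glycolytic enzymes 12 were detected, and 5 of them fell: Pfkm, Pfkp, Aldoa, Aldoc and Pgk1. None rose, where 6.19% of all genes fell and 6.24% rose. The median difference of the 12 at 24 h was -0.36 on the log2 scale, beside 0.05 for all genes. The largest decreases among these enzymes were in an isoform of phosphofructokinase, the enzyme that commits sugar to glycolysis, and in an isoform of aldolase, which splits the phosphorylated sugar. Pfkp, the platelet-type phosphofructokinase, had intensities of 1182, 1348.5, 1038, 390.5, 319 and 330.4, and was 3.46-fold lower at 24 h (-2.35 ± 0.43; limma adjusted p = 0.0094). A second detected probe of Pfkp had intensities of 347.5, 342, 304, 113, 84.1 and 92.2, a 3.36-fold decrease. Both probes were high up to 4 h and low from 8 h on. Aldoc, aldolase C, had intensities of 337, 318, 270.0, 75.4, 80.0 and 80.4, and was 3.66-fold lower at 24 h (-2.40 ± 0.44; limma adjusted p = 0.0095). Its level after 8 h changed little.

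Paralogs of these enzymes had smaller fitted changes. Pfkm, the muscle-type phosphofructokinase, went from 1693, 1788 and 1846 in the first 4 h to 1273, 1224 and 1170.3 from 8 h on (-0.67 ± 0.20; limma adjusted p = 0.047). Pfkl, the liver type, stayed between 2970.4 and 3913, with the highest value at 2 h and no consistent order among the rest (-0.07 ± 0.17; limma adjusted p = 0.81). Of the 3 phosphofructokinase genes, those of the platelet and muscle types thus fell and that of the liver type did not pass. Aldoa, aldolase A, had intensities of 7565, 7579, 7392, 4936, 4617 and 5444 and was 1.39-fold lower at 24 h (-0.73 ± 0.20; limma adjusted p = 0.040). The calls for Pfkm and Aldoa were each lost when any 1 of 4 arrays was left out. For Pfkm these were the 2, 8, 12 and 24 h arrays, with limma adjusted p-values up to 0.15. For Aldoa they were the 0, 2, 12 and 24 h arrays, with limma adjusted p-values up to 0.11. Averaging the detected probes of Pfkm also ended its call (limma adjusted p = 0.17). Of the added probes, 1 was detected on all 6 arrays and was 1.58-fold lower at 24 h (fitted change -0.73). The other was dim, detected on 3 arrays, with 19.9 at 0 h and 21.9 at 24 h (fitted change -0.04).

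Further down the pathway, Pgk1, phosphoglycerate kinase, which makes the first ATP of glycolysis, fell. Its intensities were 5922, 5313, 5299.9, 3752, 3509.5 and 3820.3, so that it was 1.55-fold lower at 24 h (-0.81 ± 0.17; limma adjusted p = 0.014). A dim second Pgk1 probe, detected on 2 arrays, had 40.1 at 0 h and 43.5 at 24 h. Without the 0 h or the 12 h array the Pgk1 call was lost (adjusted p up to 0.068), as it was when the bright and dim probes were averaged (adjusted p = 0.15). The remaining enzymes did not pass. Tpi1, triosephosphate isomerase, had intensities of 5379.9, 5444 and 5567 up to 4 h and 4255, 3972 and 4512 from 8 h on (-0.43 ± 0.16; limma adjusted p = 0.11). Gapdh, often used as a reference gene, stayed between 12933 and 13763 (-0.02 ± 0.10). Pkm, pyruvate kinase, ranged from 5709 to 7131 and Pgam1, phosphoglycerate mutase, from 1279 to 1659.8, without a clear direction. Eno2, the neuronal enolase, went from 94.8 at 0 h to 50.03 at 24 h (limma adjusted p = 0.11), and Hk1, hexokinase 1, was detected on 3 arrays with intensities from 12.2 to 40.1.

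**Figure D3:**
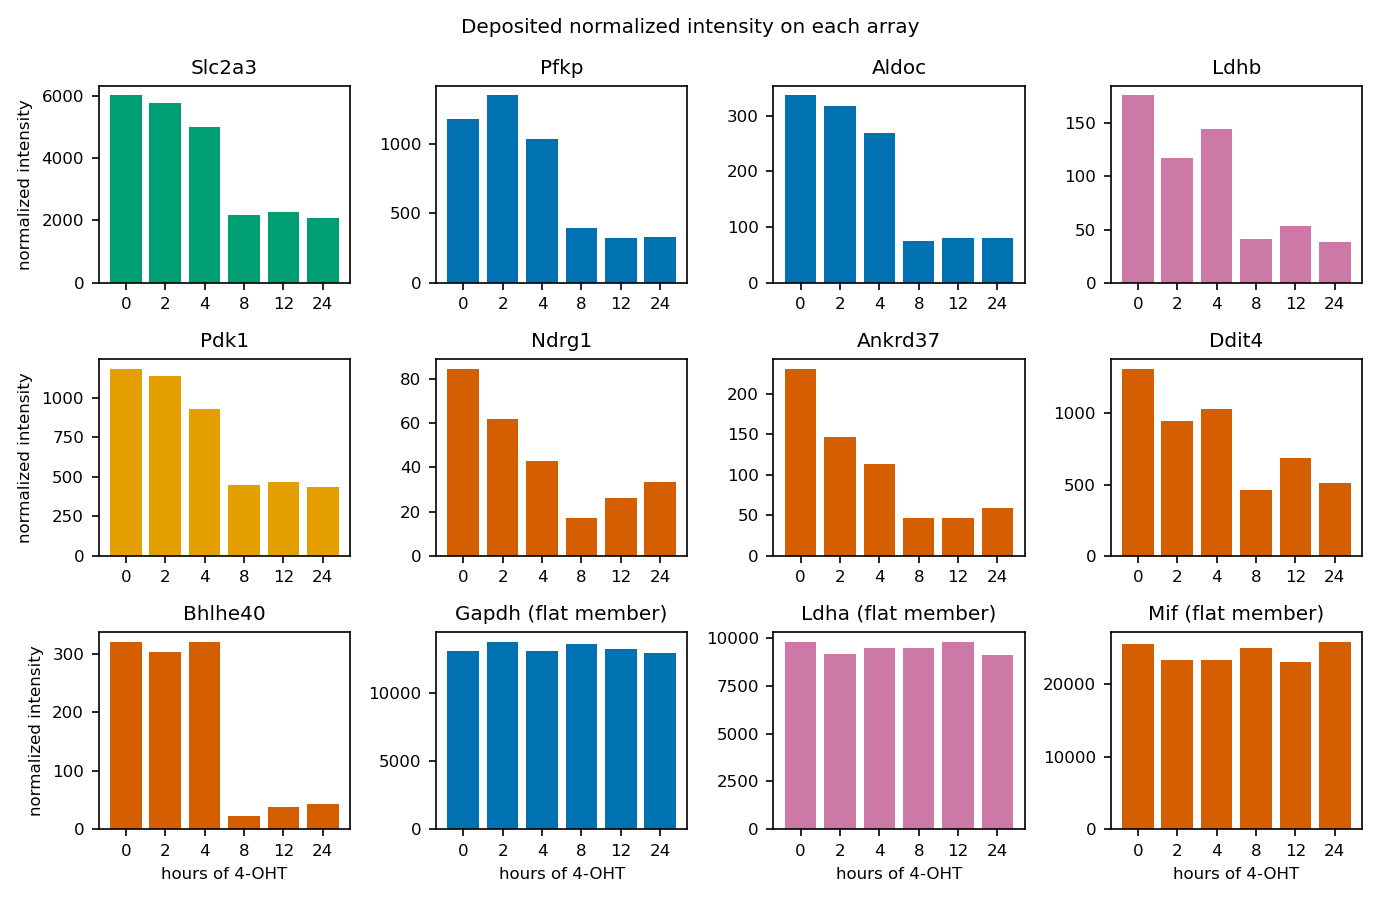
Deposited normalized intensity (arbitrary units, linear axis from 0) on each of the 6 arrays for the 9 members at least 2-fold lower at 24 h than at 0 h, and for 3 members that stayed level. Each bar is 1 array, so there are no error bars, and each panel has its own scale. The bars of Slc2a3 drop from 5001 at 4 h to 2167 at 8 h, while those of Gapdh stay between 12933 and 13763.

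Pyruvate can be turned to lactate by lactate dehydrogenase, whose subunits are encoded by Ldha and Ldhb. The subunit genes differed. Ldha stayed between 9114.5 and 9811 (-0.05 ± 0.10; limma adjusted p = 0.79). Ldhb had intensities of 176, 118, 145, 41.3, 52.9 and 38.7 and was 3.52-fold lower at 24 h (-2.02 ± 0.37; limma adjusted p = 0.0091). It was below detection at 8 h, and its call was lost without the 0 h array (adjusted p = 0.055). Slc16a3, which encodes the lactate exporter MCT4, had intensities of 44.9, 42.8, 54.5, 54.0, 71.3 and 88.6 and did not pass (0.79 ± 0.25; limma adjusted p = 0.062). It was the member with the highest fitted change, and its signal passed the detection limit only on the 3 most sensitive arrays (4, 12 and 24 h).

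Entry of pyruvate into mitochondrial oxidation is gated by the pyruvate dehydrogenase kinases, which phosphorylate and inhibit the complex. Pdk1, a well known HIF target, had intensities of 1185, 1136, 931, 446, 466 and 436 and fell, with a 2.66-fold lower signal at 24 h (-1.74 ± 0.29; limma adjusted p = 0.0064). Its second probe had intensities of 338, 189, 204, 49.0, 70.4 and 47.6, a 5.56-fold decrease at 24 h, with the 8 h signal below detection. The probes thus shared the direction and a step down between 4 and 8 h. They differed in size, and the second probe had already dropped from 338 to 189 by 2 h. Pdk3, another kinase, stayed between 322 and 392 (0.10 ± 0.18; limma adjusted p = 0.74). Pdha1, the catalytic alpha subunit of the complex, had 1680.4, 1597 and 1797 up to 4 h and 1424, 1357 and 1407 from 8 h on, and did not pass (-0.33 ± 0.16; limma adjusted p = 0.18).

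Of the 15 HIF targets outside glycolysis, 10 were detected, and Bhlhe40, Ankrd37, Ddit4, Ndrg1 and Egln3 fell. None rose, where 6.19% of all genes fell and 6.24% rose. The median log2 difference of the 10 from 0 h was -0.12 (4 h), -1.12 (8 h), -0.80 (12 h) and -0.995 (24 h), beside 0.06, -0.37, -0.32 and -0.36 for the glycolytic enzymes. Unlike the folds, these medians use signals below detection as deposited. The 8 h median of the HIF targets lies midway between Egln3 (-0.91), measured on both arrays, and Vegfa (-1.33), below detection on both, so its exact size is uncertain. The difference between these lists was not tested. Counting only targets detected on all 6 arrays left 5, of which Ddit4 and Egln3 fell, with a median of -0.13 at 24 h. Of all genes detected on all 6 arrays, 6.76% fell. Bhlhe40 and Ankrd37, with 319.8 and 231 at 0 h, were left out because their signals were below detection at 8 h alone. This filter therefore does not separate dim genes from genes that fell. The size of the HIF target median depended on which genes it kept.

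Bhlhe40, a basic helix-loop-helix repressor gene, had the largest change of all members. Its intensities were 319.8, 302 and 320.1 at 0, 2 and 4 h and 22.6, 37.7 and 42.3 at 8, 12 and 24 h. The first 3 arrays were level, the 8 h value was below detection, and the later values stayed low, at 5.76-fold below 0 h by 24 h (-3.43 ± 0.79; limma adjusted p = 0.021). Its course was a step and not a line, its standard error was the widest among the members, and the call was lost without the 0, 2, 12 or 24 h array (adjusted p up to 0.073), without an intensity trend (adjusted p = 0.059) and under robust moderation (adjusted p = 0.12).

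Ankrd37, an ankyrin repeat gene, and Ndrg1, a stress-responsive gene, were already lower in the first hours. Ankrd37 had intensities of 231, 147, 113, 47.3, 46.4 and 59.1 (-2.11 ± 0.34; limma adjusted p = 0.0059). Its signal was already 1.91-fold below 0 h on the 4 h array and 3.29-fold below it on the last, with the 8 h signal below detection, and its call was lost without the 0 h array (adjusted p = 0.074). Ndrg1 had intensities of 84.6, 61.9, 42.8, 17.2, 26.0 and 33.5 (-1.35 ± 0.38; limma adjusted p = 0.041). It was 2.03-fold lower at 24 h and was below detection at 2 and 8 h. Its second probe had 98.2 at 0 h, 39.6 at 4 h and 10.6 at 24 h and was detected on 2 arrays. Leaving out the 0, 2, 4 or 12 h array ended the call for Ndrg1 (adjusted p up to 0.30).

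Ddit4, which encodes the mTOR inhibitor REDD1, and Egln3, an oxygen-sensing prolyl hydroxylase that marks HIF alpha for destruction, were detected on all 6 arrays. The intensities of Ddit4 were 1312, 945.5, 1028, 461, 682 and 514, with the lowest at 8 h and a 2.51-fold lower signal at 24 h (-1.42 ± 0.29; limma adjusted p = 0.013). Those of Egln3 were 269, 329, 259, 136, 133 and 129.7, a 1.96-fold decrease at 24 h that fell just short of 2-fold (-1.32 ± 0.32; limma adjusted p = 0.024). In both genes the values from 8 h on lay below all earlier ones. The calls were lost without the 0 or 24 h array for Ddit4 (adjusted p up to 0.10) and without the 12 or 24 h array for Egln3 (adjusted p up to 0.083).

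The other detected HIF targets did not pass. Vegfa, the vascular growth factor gene, had intensities of 46.1, 42.3, 40.7, 8.64, 23.0 and 10.2 on its 1 detected probe, which was detected at 4 and 12 h, and lay just outside the threshold (-1.37 ± 0.41; limma adjusted p = 0.051). Bnip3l, a mitophagy receptor gene, stayed between 975 and 1209. Mif, a cytokine gene with the brightest member probe, stayed between 23078 and 25862, and its second probe between 4558 and 5888.5. The collagen prolyl hydroxylase genes P4ha1 and P4ha2 ranged from 31.5 to 55.9 and from 69.4 to 95.6. The fitted changes of these 10 detected genes thus ranged from -3.43 to 0.02 on the log2 scale.

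Other genes of these pathways, outside the 41, were counted in the same way. Of 14 detected HIF factors and regulators, 1 rose and none fell, where 6.24% of all genes rose and 6.19% fell. The gene that rose was Cited2, which encodes a protein that competes with HIF for the coactivators p300 and CBP. Cited2 had intensities of 743, 964, 880.4, 1428, 1448 and 1785 and was 2.37-fold higher at 24 h (1.296 ± 0.19; limma adjusted p = 0.0041). Hif1a, which encodes the main oxygen-regulated subunit, had 105 at 0 h, 156 at 8 h and 111 at 24 h and did not pass (0.21 ± 0.23; limma adjusted p = 0.58), and its partner gene Arnt stayed between 629.7 and 875.

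Of 25 other HIF targets detected, 5 fell and 2 rose, where 6.19% of all genes fell and 6.24% rose. The median difference of the 25 was -0.40 at 8 h and -0.19 at 24 h. The early response gene Ier3 went from 528 at 0 h to 127 at 8 h and 93.2 at 24 h (-2.79 ± 0.39; limma adjusted p = 0.0040), and Tfrc, the transferrin receptor gene, from 2804 to 1295 and 1041 (-1.303 ± 0.19; limma adjusted p = 0.0043). Kdm3a, a histone demethylase gene, Ak4, an adenylate kinase gene, and Plod1, a collagen lysyl hydroxylase gene, fell by smaller amounts, from 1.87-fold lower at 24 h for Kdm3a to 1.93-fold for Plod1. Hmox1, heme oxygenase 1, and Igfbp3, an IGF binding protein gene, rose. Hmox1 was below detection at 0 and 2 h (36.1 and 70.3), and Igfbp3 was detected at 4, 12 and 24 h only. The size of both rises therefore rests in part on signals below detection.

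Among 18 other detected genes of glycolysis and pyruvate use, Pdk4 and Pdhb fell and Pfkfb4 rose. Of all genes, 6.19% fell and 6.24% rose. Pdhb, the beta subunit gene of pyruvate dehydrogenase, went from 1114 at 0 h to 797 at 24 h (-0.56 ± 0.15; limma adjusted p = 0.036). Pdk4 had 76.2 at 0 h and was not detected at 2, 8 or 24 h. Pfkfb4, which encodes a regulator of phosphofructokinase, had 23.6 at 0 h, below detection, and 56.1 at 24 h. Of 4 detected genes of the pentose phosphate pathway, which branches from glycolysis, Pgls rose 1.60-fold by 24 h (0.62 ± 0.15; limma adjusted p = 0.022), and Rpia, Tkt and Taldo1 did not pass.

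**Figure D4:**
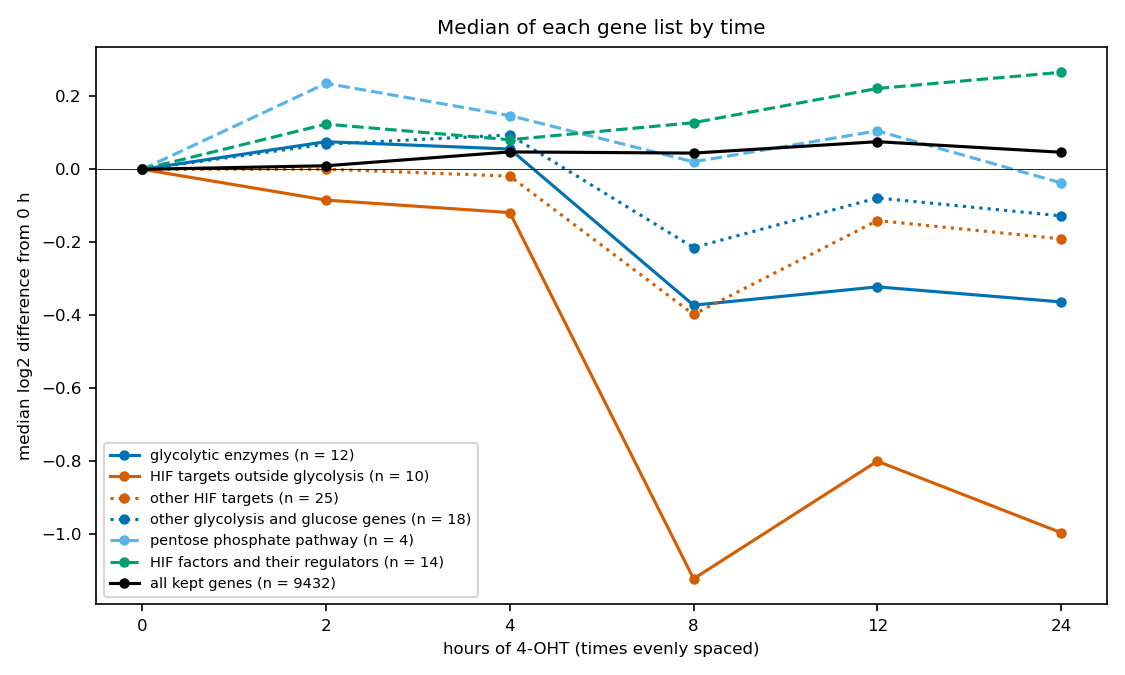
Median log2 difference from the 0 h array for 6 gene lists and for all genes tested, by time, with the number of detected genes in each list. Signals below detection are used as deposited. The HIF targets outside glycolysis reach -1.12 at 8 h, a value set in part by Vegfa, which was below detection at 0 and 8 h, the glycolytic enzymes -0.37, and all genes 0.04.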

How the data were processed

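The authors deposited normalized intensity per probe, on a linear scale, for 45281 probes, and a second table of intensity without background subtraction with a detection p-value per probe and array. Per the submitters' processing notes the tool was GenomeStudio, with normalization steps not given in the sources used here. All 6 arrays share a minimum of -17.659 and a maximum of 32363 in the normalized table, as quantile normalization after background subtraction gives. The second table as held here covers 72.4% of the probes and 20 of the 38 members, so the normalized table was used and the second table served for detection limits and as an alternative.

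Negative values were set to 0, 16 was added, and log2 was taken, which understates changes of dim genes. Probes with 1 gene symbol in the platform annotation (34885, of which 34807 matched RefSeq by Entrez identifier; 18 had several symbols and 10378 none) and detected on at least 1 array were kept, and the probe with the highest mean represented its gene, leaving 9432 genes. Folds are ratios of intensity + 16, and an undetected signal was set to the detection limit of its array where that was higher. Trends were fitted with limma 3.58.1 in R 4.3.3 (lmFit, eBayes with an intensity trend, two-sided). Fitted changes are slopes times the span from 0 to 24 h, with their standard error. The p-values measure scatter of single arrays about the fitted line, which may be technical. For a gene that drops in a step, this scatter includes the departure of the step from the line. Tested on simulated data for 9432 genes, the fit called 83% of genes with a log2 change of 2, 41% of those with a change of 1 and 0.0758% of unchanged ones. These rates are for a trend over the 6 arrays, and the rate for a signal that drops in a step was not tested. The simulated noise was independent between genes, and its size was shuffled among them. Errors shared by all genes of an array, and a link of scatter to intensity, were therefore left out. The rates may differ in the measured data. The number of arrays limits the precision. Members that passed the trend test or were 2-fold lower are given on every array, others by range. Pathway genes outside the members are named where they passed, at most 5 per list and direction, and Hif1a, Arnt, Rpia, Tkt, Taldo1 and the markers were named after their values were seen. The members and lists were chosen with earlier results of these data known.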

Additional observations from a re-analysis of the deposited data

How the results depend on the processing

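Of the 14 members that fell, none changed direction under any of the alternatives. Slc2a3, Pfkp, Aldoc and Pdk1 kept an adjusted p under 0.05 with each array left out in turn, and the other 10 lost it for at least 1 array. The counts over these settings ran from 7 to 14 falling members, 2 to 5 glycolytic enzymes and 1 to 6 HIF targets outside glycolysis. Against untransformed hours the counts were 0, 0 and 0 (15 members at an unadjusted p under 0.05 with limma; 11 of all genes fell and 18 rose), and without a filter on dim probes 0, 0 and 0 (17 members at an unadjusted p under 0.05; smallest adjusted p over all genes 0.13). Moderation without an intensity trend gave 7, 2 and 2, and called 359 falling genes in all, not 584. The table without background subtraction holds 15 of the detected members: 9 fell with normexp and quantile normalization (2 glycolytic enzymes; median of members at 24 h -0.97), 9 without background correction (2 enzymes; 5 members 2-fold lower, HIF target median -0.69), and 8 with median scaling (1 enzyme; member median -0.99), with fewer members tested by construction. In the same order, 6.40%, 6.53% and 6.99% of all genes tested there fell. Only probes detected on all 6 arrays left 2 falling HIF targets, 5 members 2-fold lower, and medians of -0.25 for members and -0.13 for HIF targets. The HIF target median was -0.13 without a filter and -0.59 with an offset of 64. Averaging probes gave 3 falling enzymes and 1 rising member, Slc16a3 (adjusted p = 0.048). It also rose by order of times, again 1 member (adjusted p = 0.035). Robust moderation gave 3 falling enzymes. Vegfa passed under 5 alternatives, with adjusted p-values from 0.033 to 0.048. Where no reason is given, the cause was not tested. Detection limits between 18.5 and 71.1 leave changes of members below them unmeasured. No paired analysis was possible because each time had 1 array.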
